A study of Mus musculus with 14 samples.

Results

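Acinar, ductal and basal cells of a salivary gland each run under their own transcription factors, and 9 such genes were followed here across the 3 major salivary glands of the mouse and the organoids grown from them. They were taken by gene symbol out of the 45777 genes in the deposited tables and are Bhlha15, Spdef, Elf5, Ehf, Trp63, Sox9, Sox10, Grhl2 and Klf4. Bulk RNA-seq was made from wild-type C57BL/6 mice, female by the study's methods, and the names of the tissue columns give an age of 6 weeks. There were 14 libraries in 7 groups of 2, which the submitters call biological replicates. Nothing in the labels says whether they came from separate mice or cultures, so the p-values measure only the spread between these libraries. The tissue groups were the untreated submandibular gland (SMG), parotid gland (PG) and sublingual gland (SLG). The organoid groups were SMG, PG and SLG organoids kept for 3 days in differentiation accelerating medium (DAM), and SMG organoids in growth and expansion medium (GEM). GEM holds neuregulin 1, R-spondin 1, Noggin, fibroblast growth factors, the ALK inhibitor A83-01 and the ROCK inhibitor Y-27632, while DAM leaves out Y-27632 and adds DAPT, which blocks Notch signaling. The labels give 3 days in medium for every organoid group, GEM included. By the study's figure legends, however, organoids were held in GEM for 9 days, and those in DAM for a further 3 days. These sources were not reconciled. In DAM against GEM, the removal of Y-27632, the addition of DAPT and any difference in the time in culture therefore cannot be told apart. All organoids were embedded in Matrigel, whereas the tissue libraries hold all cells of the gland.

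Salivary acini make the primary saliva, ducts modify it, and basal and myoepithelial cells lie between these layers and the basement membrane. Bhlha15 (MIST1), a basic helix-loop-helix factor, sets up the secretory granules of serous acinar cells and is the standard marker of that fate. Spdef, an ETS factor, drives mucous and goblet cell maturation, and its relatives Elf5 and Ehf act in luminal and glandular epithelium. Trp63 (p63) is the master regulator of basal and stratified epithelial cells. Sox9 and Sox10 are SOXE factors of the distal progenitors in the developing gland, and Sox10 is also used by myoepithelial cells and by the Schwann cells of nerves. Grhl2, a grainyhead factor, keeps junction genes active throughout simple and stratified epithelium. Klf4 acts in the differentiating layers above basal cells.

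The libraries held between 56383651 and 71367044 counts. The 10 genes with the highest counts took 7.37% to 9.07% of a library in organoids, 74.5% to 80.2% in SMG and PG tissue and 47.0% to 49.6% in SLG tissue, so that levels depend on the scaling. Levels here are CPM, counts scaled to a common library size with TMM factors, which hold most genes constant between libraries. Levels of different genes are compared in the deposited TPM, which are also scaled to gene length and were used for 12 libraries, leaving PG organoids in DAM and SMG organoids in GEM with 1 library each. The labels call every sample epithelial cells, yet 6 fibroblast genes summed to 197 to 677 CPM in tissue against 0.754 to 1.74 CPM in organoids. Skeletal muscle genes summed to 842 CPM in PG tissue replicate 2 and to 6.53 CPM in replicate 1. The part of this muscle in any result was not tested. Over all genes counted well enough, the SLG tissue libraries differed most from each other. The chi-square of their counts per degree of freedom was 282, against 6.98 to 43.4 in the other groups. In bulk RNA, fewer cells of a type and less RNA per cell cannot be told apart. A gene was called changed when its adjusted p in edgeR's quasi-likelihood test was under 0.05 and its log2 fold change passed 1 in either direction.

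Of the 9 genes, 4 had promoters in the RefSeq table of the GRCm38.p6 build, and the windows of the 3 genes that were lower in the organoids of all 3 glands than in tissue on the TMM scale are shown. Each holds 300 bases around an annotated start, read 5′ to 3′ on the gene's strand, with Elf5 having a pair of starts. Capitals mark E-boxes, which helix-loop-helix factors bind, searched as CAGCTG, as CATATG and as CAGGTG. They also mark ACGTG, the core of the endoplasmic reticulum stress elements, and the grainyhead sequence AACCGGTT, with both strands searched for each.
Bhlha15: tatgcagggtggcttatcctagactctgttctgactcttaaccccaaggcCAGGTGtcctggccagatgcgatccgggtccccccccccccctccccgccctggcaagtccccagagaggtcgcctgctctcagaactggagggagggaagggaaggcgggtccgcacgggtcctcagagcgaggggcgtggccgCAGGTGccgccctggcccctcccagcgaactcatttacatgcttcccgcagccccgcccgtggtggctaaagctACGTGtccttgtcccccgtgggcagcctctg
Spdef: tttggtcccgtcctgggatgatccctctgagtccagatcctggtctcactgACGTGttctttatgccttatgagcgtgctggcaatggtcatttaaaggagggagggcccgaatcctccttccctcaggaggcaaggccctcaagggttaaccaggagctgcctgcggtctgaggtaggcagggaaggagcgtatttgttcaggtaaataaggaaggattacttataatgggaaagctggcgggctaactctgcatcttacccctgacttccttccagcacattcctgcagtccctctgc
Elf5, first start: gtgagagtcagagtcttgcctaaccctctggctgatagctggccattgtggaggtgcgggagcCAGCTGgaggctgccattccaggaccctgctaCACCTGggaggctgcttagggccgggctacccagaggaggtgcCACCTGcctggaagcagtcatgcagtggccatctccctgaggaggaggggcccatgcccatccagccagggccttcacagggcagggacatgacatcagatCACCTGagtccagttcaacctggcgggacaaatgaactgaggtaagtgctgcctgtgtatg
Elf5, second start: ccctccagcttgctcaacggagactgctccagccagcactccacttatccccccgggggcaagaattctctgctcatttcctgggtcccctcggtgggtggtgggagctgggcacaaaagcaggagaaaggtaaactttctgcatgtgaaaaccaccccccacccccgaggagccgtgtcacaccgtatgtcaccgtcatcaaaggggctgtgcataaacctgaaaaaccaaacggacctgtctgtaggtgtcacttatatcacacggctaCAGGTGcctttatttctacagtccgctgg
The Bhlha15 window (chr5:144190036-144190335, plus strand) held CAGGTG 200 and 55 bases before the start and ACGTG 19 bases after it. The Spdef window (chr17:27728902-27729201, minus strand) held ACGTG alone, 199 bases before the start. The first Elf5 window (chr2:103411848-103412147, plus strand) held CAGCTG 187 bases before the start and CAGGTG, written there as CACCTG, at 155, 112 and 11 bases before it. The second (chr2:103423818-103424117, plus strand) held CAGGTG 21 bases after the start. Over 32851 promoters of the same length, 20.2% held CAGGTG, 16.3% CAGCTG, 19.6% ACGTG, 3.91% CATATG and 0.146% AACCGGTT. CATATG and AACCGGTT were not in these letters, and a match is a description of the sequence only. Bhlha15 covers chr5:144190286-144194441 and Spdef chr17:27714446-27731003. Ehf (chr2:103263431-103303275) and Elf5 (chr2:103412098-103450989) are neighbours, 108822 bases apart with the long noncoding RNA genes A930006I01Rik and BC016548 between them. The other members are Trp63 (chr16:25683763-25892088), Sox9 (chr11:112782210-112787757), Sox10 (chr15:79154913-79164490), Grhl2 (chr15:37232821-37363569) and Klf4 (chr4:55527137-55532475).

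**Figure D1:**
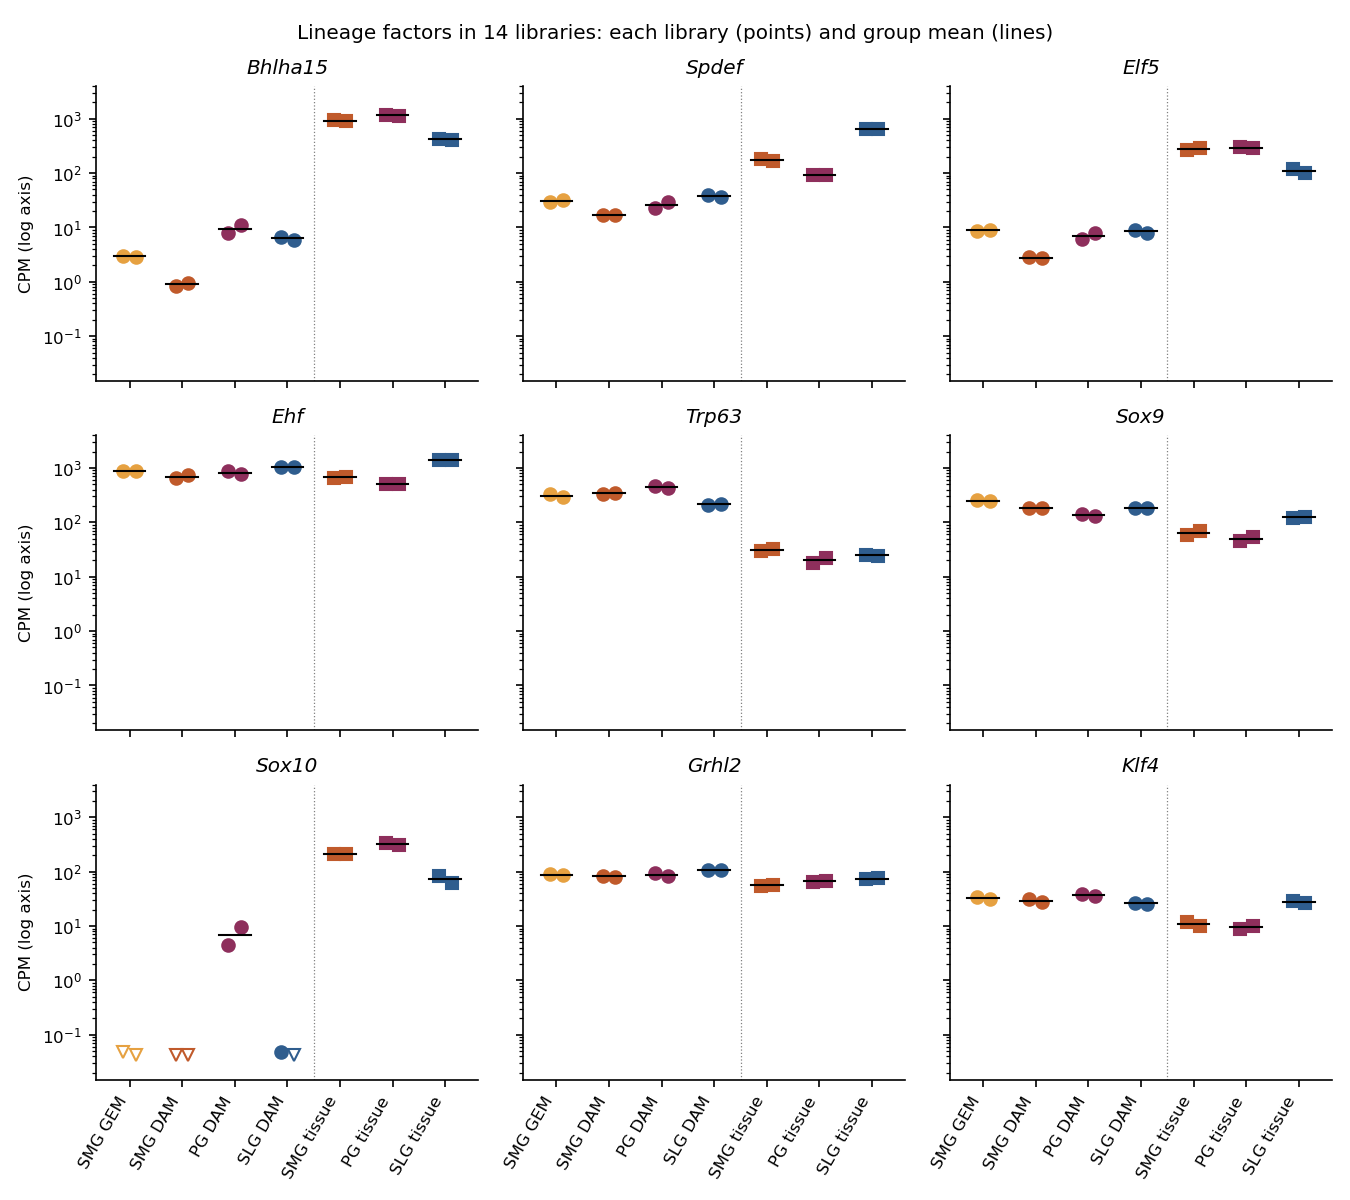
Level of the 9 lineage factors in each of the 14 libraries, in TMM-scaled CPM on a log axis. Points are libraries, short lines are means of groups whose libraries both hold a count, and open triangles are libraries with 0 counts, drawn at the level of 3 counts. Bhlha15 lies between 404 and 1177 CPM in tissue and between 0.852 and 10.96 CPM in organoids, and Trp63 lies the other way round.

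Bhlha15 had the widest range of the 8 members counted in every library. In tissue it measured 935 and 915 CPM in SMG, 1177 and 1119 CPM in PG and 432 and 404 CPM in SLG. In DAM it measured 0.852 and 0.941 CPM in SMG organoids, 7.81 and 10.96 CPM in PG organoids and 6.74 and 5.83 CPM in SLG organoids, and it stood at 3.01 and 2.89 CPM in SMG organoids in GEM. Each tissue library lay above each organoid library, and no neighbouring groups in the order of levels overlapped. In SMG the gene was 1029-fold lower in DAM organoids than in tissue (log2 fold change −10.01, SE 0.17, adjusted p = 8.85e-17). It was 122-fold lower in PG (−6.94, SE 0.14, adjusted p = 6.05e-16) and 66.4-fold lower in SLG (−6.05, SE 0.14, adjusted p = 2.21e-15). The size of the loss differed between glands by the F test of gland by material, with an adjusted p of 2.46e-10. The organoid minus tissue value was higher in PG than in SMG by 3.07 on the log2 scale (SE 0.19) and higher in SLG than in SMG by 3.95 (SE 0.20).

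Within organoids, Bhlha15 rose above the SMG level 10.6-fold in PG (3.41, SE 0.22, adjusted p = 3.46e-07) and 7.22-fold in SLG (2.85, SE 0.21, adjusted p = 1.13e-06). SMG organoids were thus the lowest of the DAM groups, whereas SLG was the lowest tissue. In SMG organoids Bhlha15 was 3.19-fold lower in DAM than in GEM (−1.67, SE 0.22, adjusted p = 6.06e-04). On log2(TPM + 1), where the pseudocount of 1 understates changes of low genes, the difference was −0.81 and was not called, with TPM values of 1.56 in GEM and 0.440 and 0.479 in DAM. The SMG DAM libraries held 61 and 67 Bhlha15 counts. In tissue it was lower in SLG than in SMG (−1.09, SE 0.08, adjusted p = 2.57e-07), a direction that turned to 0.0058 under totals of tested genes and to 0.35 under TPM, where the median of all genes was 1.10 and 1.23. The PG libraries of tissue differed from SMG by 0.31 (SE 0.08), below the fold needed for a call.

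A list of 6 genes of the secretory programme around Bhlha15 was also mostly lower in organoids on the TMM scale. It holds Rab3d and Rab26, which are small GTPases of secretory granules, the gap junction gene Gjb1, Atp2c2, Copz2 and Xbp1, a factor of the secretory machinery. Of 6, 5 were called lower and 1 higher in SMG and in PG organoids, with medians of −4.05 and −3.51, and 6 lower in SLG, with a median of −3.85, against medians of 0.05, 0.05 and −0.02 over all genes, of which 22.4%, 22.6% and 18.6% were called lower. Gjb1 fell by 8.64 in SMG (SE 0.21) and by 6.70 in PG (SE 0.18), Copz2 by 5.28, 4.75 and 4.61 in SMG, PG and SLG, and Xbp1 by 2.81, 2.27 and 2.70. In TPM, Xbp1 was higher in organoids in DAM than in tissue in SMG (119 against 92.4) and PG (248 against 167). There Rab3d was also higher in SMG (38.4 against 18.0) and PG (39.9 against 24.3). Both stayed lower in SLG organoids, Xbp1 at 227 against 377 TPM and Rab3d at 44.3 against 91.3 TPM. The gene called higher in SMG and PG was Atp2c2, a calcium and manganese pump, which was named after its values were seen. It rose by 3.42 in SMG (SE 0.31) and by 2.25 in PG (SE 0.32). Its mean was 9.39 CPM in SMG organoids in DAM and 0.855 CPM in SMG tissue, where the libraries held only 20 and 8 counts. In DAM against GEM, 1 of the 6 was called: Gjb1 fell by 2.20 (SE 0.35, adjusted p = 0.00210), while Xbp1 lay at −0.89 (SE 0.07, adjusted p = 2.87e-05). Of 6 acinar product and transport genes tested in that comparison, 5 fell, with a median of −1.44. Over all genes, 1.15% were called lower in DAM against GEM. Markers of stroma moved with the comparison of organoids and tissue as given above, and the 9 acinar product genes in the files summed to 516 to 1773 CPM in organoids and to at least 89972 CPM in tissue. Not every gene of that list fell in each gland. Aqp5 had means of 761 CPM in SMG organoids in DAM and 855 CPM in SMG tissue. It was not called there (−0.17, SE 0.09, adjusted p = 0.101), but fell by 2.78 in PG (SE 0.10) and by 3.07 in SLG (SE 0.10). The part of stroma or of these acinar genes in the level of Bhlha15 was not tested.

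Spdef was highest in the mucous gland. It measured 653 and 644 CPM in SLG tissue, 182 and 168 CPM in SMG tissue and 90.8 and 92.4 CPM in PG tissue. In organoids it measured 39.7 and 37.0 CPM in SLG, 22.9 and 29.4 CPM in PG and 17.002 and 16.8 CPM in SMG, all in DAM, and 29.8 and 31.7 CPM in SMG in GEM. SLG was thus the highest and did not overlap the other glands in either material. In tissue Spdef rose 3.87-fold in SLG over SMG (1.95, SE 0.07, adjusted p = 6.28e-10) and was 7.36-fold lower in PG than in SLG (−2.88, SE 0.07, adjusted p = 1.28e-11). In organoids it rose 2.34-fold in SLG over SMG (1.23, SE 0.12, adjusted p = 9.17e-06), and PG stood 0.65 above SMG (SE 0.12), which was not called.

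Against tissue, Spdef fell by 3.37 in SMG organoids (SE 0.10), by 1.81 in PG organoids (SE 0.10) and by 4.08 in SLG organoids (SE 0.10). The SMG call was lost under TPM at −0.18, and the PG value turned to 0.24 under whole library totals and to 0.79 under TPM, where the medians of all genes were 2.09 and 2.40. The losses differed between glands (F test, adjusted p = 1.80e-09), with an organoid minus tissue value that differed from that of SMG by 1.56 in PG (SE 0.14) and by −0.71 in SLG (SE 0.13). DAM gave −0.82 against GEM in SMG organoids (SE 0.12, adjusted p = 0.00128), short of a call. In TPM the share of Spdef in the summed level of the 9 factors was 37.9% and 38.5% in SLG tissue, where it was the first of the 9, against 2.85% to 5.62% in organoids.

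Mucous genes also differed between the glands. Of 10 measured in organoids, 8 rose and 1 fell in SLG over SMG, with a median of 2.13. Of 8 measured in tissue, 6 rose and 1 fell, also with a median of 2.13. Over all genes, 8.91% were called higher and 6.28% lower in organoids, and 8.38% and 11.9% in tissue. Creb3l4, a membrane-bound transcription factor, rose by 3.74 in organoids (SE 0.18) and by 3.70 in tissue (SE 0.11). Agr2, a disulfide isomerase needed for mucin folding, rose by 3.91 in SLG organoids (SE 0.21) but stood at 0.39 in tissue (SE 0.11), which was not called. Galnt12, an enzyme that starts mucin glycosylation, rose by 5.50 in SLG tissue (SE 0.12) and by 1.32 in organoids (SE 0.13). In PG over SMG organoids 6 rose and 1 fell, with Creb3l4 at 3.39 (SE 0.18) and St6galnac1, a sialyltransferase, falling by 3.99 (SE 0.15). There 9.16% of all genes were called higher and 5.55% lower. The mucin Muc5b and Tff2 were at 0 in both libraries of every tissue group, and the summed list reached 3301 and 3654 CPM in SLG tissue.

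Elf5 was another factor of tissue. It measured 264 and 288 CPM in SMG tissue, 298 and 291 CPM in PG tissue and 119 and 102 CPM in SLG tissue. In organoids it measured 2.81 and 2.72 CPM in SMG, 6.22 and 7.88 CPM in PG and 9.16 and 7.77 CPM in SLG, all in DAM, and 8.58 and 9.09 CPM in SMG in GEM. The GEM libraries overlapped SLG organoids, SLG overlapped PG, and SMG in DAM lay alone at the bottom. Against tissue, Elf5 was 99.6-fold lower in SMG (−6.64, SE 0.14), 41.7-fold lower in PG (−5.38, SE 0.12) and 13.1-fold lower in SLG (−3.71, SE 0.12). The organoid minus tissue value of SLG exceeded that of SMG by 2.93 (SE 0.16), and PG minus SLG was −1.68 (SE 0.15). In SMG organoids Elf5 was 3.10-fold lower in DAM than in GEM (−1.63, SE 0.17, adjusted p = 1.46e-04). It rose in PG over SMG organoids by 1.37 (SE 0.17, adjusted p = 5.36e-05) and in SLG over SMG organoids by 1.66 (SE 0.17, adjusted p = 1.09e-05), while PG against SLG organoids gave −0.29 with an adjusted p of 0.199. In tissue Elf5 was lower in SLG than in SMG (−1.26, SE 0.09), a direction that turned to 0.17 under TPM, and higher in PG than in SLG by 1.35 (SE 0.09), which was no longer called under whole library totals, at 0.49.

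Ehf, the neighbour of Elf5 on chromosome 2, was close to even between organoids and tissue on the TMM scale. It measured 891 and 888 CPM in SMG organoids in GEM, 653 and 739 CPM in SMG in DAM, 872 and 767 CPM in PG and 1056 and 1040.1 CPM in SLG. In tissue it measured 666 and 677 CPM in SMG, 509 and 498 CPM in PG and 1407 and 1403 CPM in SLG. SMG organoids in DAM overlapped SMG tissue, and SLG was highest in both materials. No organoid group was called against its gland, with values of 0.05 in SMG (SE 0.08, adjusted p = 0.562), 0.70 in PG (SE 0.08) and −0.42 in SLG (SE 0.08). Under whole library totals the SMG value was 2.11 while the median of all genes was 2.10, and the SLG value turned to 0.74 with a median of 1.14. In tissue Ehf rose in SLG over SMG by 1.12 (SE 0.08, adjusted p = 1.49e-07) and was lower in PG than in SLG (−1.54, SE 0.08). Its count exceeded that of Elf5 97.3-fold to 272-fold in organoids but 1.71-fold to 13.7-fold in tissue, a ratio taken within each library and hence free of scaling between libraries.

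In TPM, Ehf was the most abundant of the 9 factors in all 6 organoid libraries with a TPM value used, with 49.3% to 61.6% of their summed level. Its relative Elf3, an ETS factor of ducts and squamous epithelium, had group levels of 239 to 368 TPM in organoids and 3.65 to 9.36 TPM in tissue. On the CPM scale Elf3 rose by 2.54 in SMG organoids over tissue (SE 0.16) and by 3.17 in SLG organoids (SE 0.16). The ETS factors thus went different ways, with Elf5 and Spdef lower and Elf3 higher in organoids on the TMM scale and Ehf between them, though Spdef in PG turned as given above. Of the luminal duct genes, 5 of 9 rose and 2 fell in SMG organoids, 6 rose in PG and 7 rose in SLG. Over all genes, 23%, 24.2% and 19.7% were called higher in SMG, PG and SLG, and 22.4% lower in SMG. Cldn4, a tight junction gene of ducts, rose by 4.11 in SMG (SE 0.15) and by 5.34 in SLG (SE 0.15).

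Trp63, the basal factor among the 9, was higher in organoids than in tissue. It measured 327 and 297 CPM in SMG organoids in GEM, 326 and 354 CPM in SMG in DAM, 466 and 432 CPM in PG and 211 and 221 CPM in SLG. In tissue it measured 30.1 and 31.8 CPM in SMG, 18.0 and 22.0 CPM in PG and 25.4 and 24.0 CPM in SLG. Each organoid library lay above each tissue library. Trp63 rose 22.5-fold in PG organoids over PG tissue (4.49, SE 0.10, adjusted p = 1.63e-15), 10.98-fold in SMG (3.46, SE 0.10, adjusted p = 1.29e-14) and 8.76-fold in SLG (3.13, SE 0.10, adjusted p = 4.13e-14). The gain in PG exceeded that in SMG by 1.03 (SE 0.13) and that in SLG by 1.36 (SE 0.13).

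Between glands in culture, Trp63 rose 2.04-fold in PG over SLG (1.03, SE 0.08, adjusted p = 1.70e-06). SLG stood below SMG by −0.61 (SE 0.07, adjusted p = 5.18e-05), which was not called. DAM and GEM libraries overlapped (0.17, SE 0.07, adjusted p = 0.136). In tissue no difference between glands was called, and the value of SLG against SMG moved from −0.27 to 0.83, 0.71 and 0.77 under totals of tested genes, whole totals and TPM. Among its relatives, Trp73 had group levels of 16.1 to 29.2 CPM in organoids and at most 0.210 CPM in tissue, where no library held more than 8 counts. Trp53 rose by 1.81 in SMG organoids (SE 0.10) and by 1.88 in SLG organoids (SE 0.10).

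Basal genes rose together with Trp63. All 12 of a basal list rose in SMG organoids over tissue, with a median of 3.72. In PG and in SLG organoids 11 of 12 rose, with medians of 3.90 and 3.604. Over all genes, 23%, 24.2% and 19.7% were called higher in SMG, PG and SLG. Krt5, the basal keratin, rose by 6.97 in SMG (SE 0.13) and by 5.68 in SLG (SE 0.12), and Krt17 rose by 5.54 (SE 0.11) and 5.38 (SE 0.11). In SLG over SMG organoids 2 of 12 fell, Krt15 by 1.51 (SE 0.08) and Krt5 by 1.18 (SE 0.09), with 6.28% of all genes called lower. In PG over SLG organoids 3 rose and 1 fell, with Krt14 up by 1.58 (SE 0.11). There 5.83% of all genes were called higher and 3.93% lower. The summed list stood at 5805 to 11527 CPM in organoids and 641 to 724 CPM in tissue. Proliferation genes, at 207 to 572.4 CPM against 22.2 to 51.8 CPM, and immediate early genes, at 551 to 946 CPM against 242 to 293 CPM, moved with the same comparison, and their part in the level of Trp63 was not tested.

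Sox9 and Sox10 parted in culture. Sox9 measured 255 and 242 CPM in SMG organoids in GEM, 182 and 180.04 CPM in SMG in DAM, 143 and 130 CPM in PG and 184 and 181 CPM in SLG. In tissue it measured 59.0 and 68.5 CPM in SMG, 46.1 and 53.2 CPM in PG and 120 and 127 CPM in SLG. All organoid libraries lay above all tissue libraries, with PG organoids at 130 CPM and SLG tissue at 127 CPM as the nearest. Sox9 rose in SMG organoids by 1.51 (SE 0.09, adjusted p = 1.20e-10) and in PG organoids by 1.46 (SE 0.09, adjusted p = 1.89e-10), and stood 0.56 above tissue in SLG (SE 0.09), which was not called but became 2.47 under TPM. The organoid minus tissue value of SLG differed from that of SMG by −0.95 (SE 0.12), and that of PG by −0.05 (SE 0.12, adjusted p = 0.766). In tissue Sox9 was 2.02-fold higher in SLG than in SMG (1.02, SE 0.10), a call that lies at the threshold and was lost at 0.92 without SMG tissue replicate 1 and at 0.98 without SLG tissue replicate 2.

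Sox10 was counted 0 times in all 4 SMG organoid libraries, 4 and 0 times in SLG organoids, and 314 and 634 times in PG organoids. In tissue it was counted 3623 and 3114 times in SMG, 6851 and 6069 times in PG and 2647 and 2544 times in SLG. The only organoids with a clear signal were therefore those of the parotid, at 4.49 and 9.46 CPM against 334 and 312 CPM in PG tissue. With the mean level of 3 counts per library as the floor, PG organoids were at least 166-fold higher than SMG organoids in DAM and at least 177-fold higher than SLG organoids. Without PG replicate 3 these bounds were 107-fold and 114-fold. On the same floor, SMG tissue was at least 5042-fold higher than SMG organoids in DAM and SLG tissue at least 1867-fold higher than SLG organoids. These bounds cover counting error only. Because of the zeros Sox10 left the fits that hold organoids, and it was tested in the 4 PG libraries alone, where organoids were lower than tissue (log2 fold change −5.48, SE 0.43, adjusted p = 8.69e-04, edgeR). The value was smaller in size, at −3.57 and −3.48, under totals of tested genes and whole library totals, and was called under both. In tissue it was lower in SLG than in SMG (−1.47, SE 0.11, adjusted p = 8.28e-07), a call lost under whole totals at −0.50, and 4.23-fold higher in PG than in SLG (2.08, SE 0.12, adjusted p = 2.68e-08), and PG stood 0.61 above SMG (SE 0.11), which was not called.

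Of the PG organoid libraries, the one numbered 3 had more Sox10 and was also the higher one in Bhlha15, Elf5 and Spdef. Without it the value against PG tissue was −6.04, and without the other −4.99. Myoepithelial genes summed to 168 CPM in PG organoid replicate 1 and 223 CPM in replicate 3, to 78.4 and 73.3 CPM in SLG organoids and to 1.76 to 2.38 CPM in SMG organoids, against 251 to 1140 CPM in tissue. Sox10 itself was hardly counted in SLG organoids, as given above. The Schwann cell genes Cdh19, Foxd3 and Gfra3 were at 0 in all organoid groups and above 0 in all tissue groups. The part of nerves or myoepithelium in the level of Sox10 was not tested. Among other SOX genes, Sox4 had group levels of 174 to 216 TPM in organoids and 0.671 to 1.85 TPM in tissue, and in CPM it rose by 4.27 in SMG (SE 0.12) and by 4.83 in SLG (SE 0.13). Within a library, Sox9 counts were 13.7 and 31.8 times the Sox10 counts in PG organoids, at least 4275 times in the SMG organoids, and 0.138 to 2.03 times in tissue.

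Grhl2 varied least of the members on the TMM scale. It measured 90.8 and 85.9 CPM in SMG organoids in GEM, 84.4 and 81.0 CPM in SMG in DAM, 93.6 and 82.7 CPM in PG and 108.5 and 106 CPM in SLG. In tissue it measured 55.3 and 57.4 CPM in SMG, 64.7 and 68.5 CPM in PG and 71.9 and 75.8 CPM in SLG. No comparison called it on the TMM scale, and its largest main value was 0.55 in SMG organoids over tissue (SE 0.08, adjusted p = 8.75e-06). Nor was a gland by material effect called (adjusted p = 0.393), although one was under whole library totals (adjusted p = 1.05e-05). Under whole totals its value against tissue was 2.61 in SMG, where the median of all genes was 2.10. Set against the log2 fold change of Grhl2 in the same fit, Bhlha15 was lower by 10.56, Elf5 by 7.19 and Spdef by 3.92. These values are for SMG organoids against tissue, where Trp63 stood 2.90 higher.

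The relatives of Grhl2 moved more. Grhl1 fell by 2.25 in SMG organoids (SE 0.09) and by 1.94 in SLG organoids (SE 0.09) against tissue. Grhl3, which acts in the outer epidermal layers, had group levels of 8.45 to 18.5 CPM in organoids and at most 0.820 CPM in tissue. Tfcp2l1, a factor of salivary and kidney ducts, reached 998 TPM in SLG organoids and in CPM it rose there over SMG organoids by 1.46 (SE 0.09) and over SLG tissue by 2.21 (SE 0.09). Epithelial junction genes, a textbook output of grainyhead factors, were called in both directions: 4 of 11 rose and 4 fell in SMG, 5 rose and 2 fell in PG, and 3 rose and 2 fell in SLG, with medians of −0.59, 0.09 and −0.25. Over all genes 23% were called higher and 22.4% lower in SMG, 24.2% and 22.6% in PG and 19.7% and 18.6% in SLG, so that the SLG counts lie near the background.

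Klf4 separated SLG tissue from the other glands. It measured 11.9 and 9.996 CPM in SMG tissue, 8.96 and 9.97 CPM in PG tissue and 28.7 and 26.0 CPM in SLG tissue. In organoids it measured 33.8 and 31.1 CPM in SMG in GEM, 30.8 and 28.0 CPM in SMG in DAM, 39.5 and 36.3 CPM in PG and 27.0 and 24.9 CPM in SLG. SLG tissue overlapped the SMG and SLG organoids in DAM, while SMG and PG tissue lay below all other groups. Klf4 rose in PG organoids over tissue 4.004-fold (2.001, SE 0.12, adjusted p = 1.16e-10) and in SMG organoids 2.68-fold (1.42, SE 0.12, adjusted p = 1.10e-08), and was at −0.08 in SLG (SE 0.10, adjusted p = 0.525), which became 1.09 under whole totals. The organoid minus tissue value of PG exceeded that of SLG by 2.08 (SE 0.16). In tissue it rose in SLG over SMG by 1.38 (SE 0.15, adjusted p = 7.35e-06) and was lower in PG than in SLG (−1.59, SE 0.14).

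Its relatives Klf5 and Klf3 rose with it in SLG over SMG tissue, by 2.64 (SE 0.19) and 1.10 (SE 0.10), as 2 of the 5 KLF genes of 14 tested that rose there. Over all genes, 8.38% were called higher in that comparison. Klf15 took the opposite course in culture, falling by 5.72 in SMG organoids (SE 0.09) and by 3.38 in SLG organoids (SE 0.08) against tissue. Squamous genes, which mark the layers in which Klf4 acts in skin, summed to 560 to 1212 CPM in organoids and 3.63 to 14.8 CPM in tissue. In SLG over SMG organoids 5 of 8 fell, with involucrin (Ivl) down by 3.65 (SE 0.14), whereas Klf4 lay at −0.14 there (SE 0.08, adjusted p = 0.212). Over all genes, 6.28% were called lower in that comparison.

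**Figure D2:**
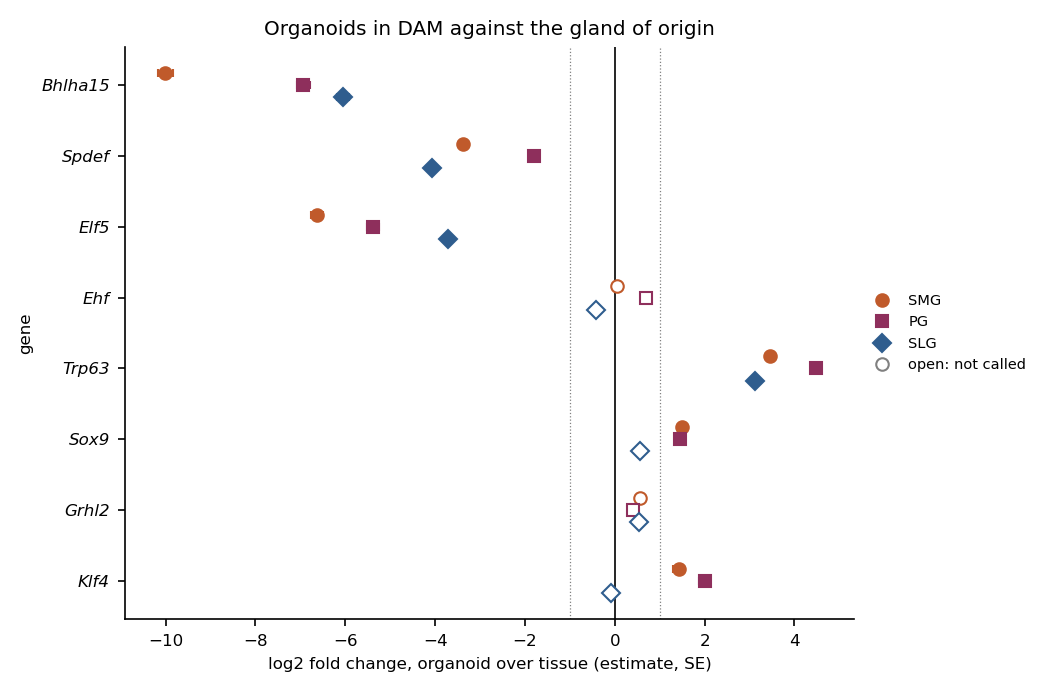
Log2 fold change of 8 factors in DAM organoids against the tissue of the same gland, with bars of 1 SE, for SMG, PG and SLG. Filled points were called and open ones were not, and Sox10 is left out because of its zeros. Bhlha15, Elf5 and Spdef lie below 0 and Trp63 above 0 in the 3 glands on this TMM scale, though Spdef in PG turned to 0.24 under whole library totals and 0.79 under TPM.

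Counted together, in organoids against tissue 3 of the 8 members tested were higher and 3 lower in SMG, where 23% of all 14323 genes were called higher and 22.4% lower. In PG 3 were higher and 3 lower, with 24.2% and 22.6% of genes called higher and lower. In SLG 1 was higher and 3 were lower, with 19.7% and 18.6% of genes called. Calls were thus common in these comparisons. Organoids and tissue were deposited in separate tables, so that table and material cannot be told apart. The test of gland by material called 7 of the 8 members, all but Grhl2, against 71.8% of all genes. On the TMM scale the members did not shift together, since Ehf and Grhl2 were not called in any gland while Bhlha15 had the largest fall of the 8 tested within each gland. Sox10 was not among the 8, and its lower bounds in SMG and SLG, given above, lie beyond the falls of Bhlha15.

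**Figure D3:**
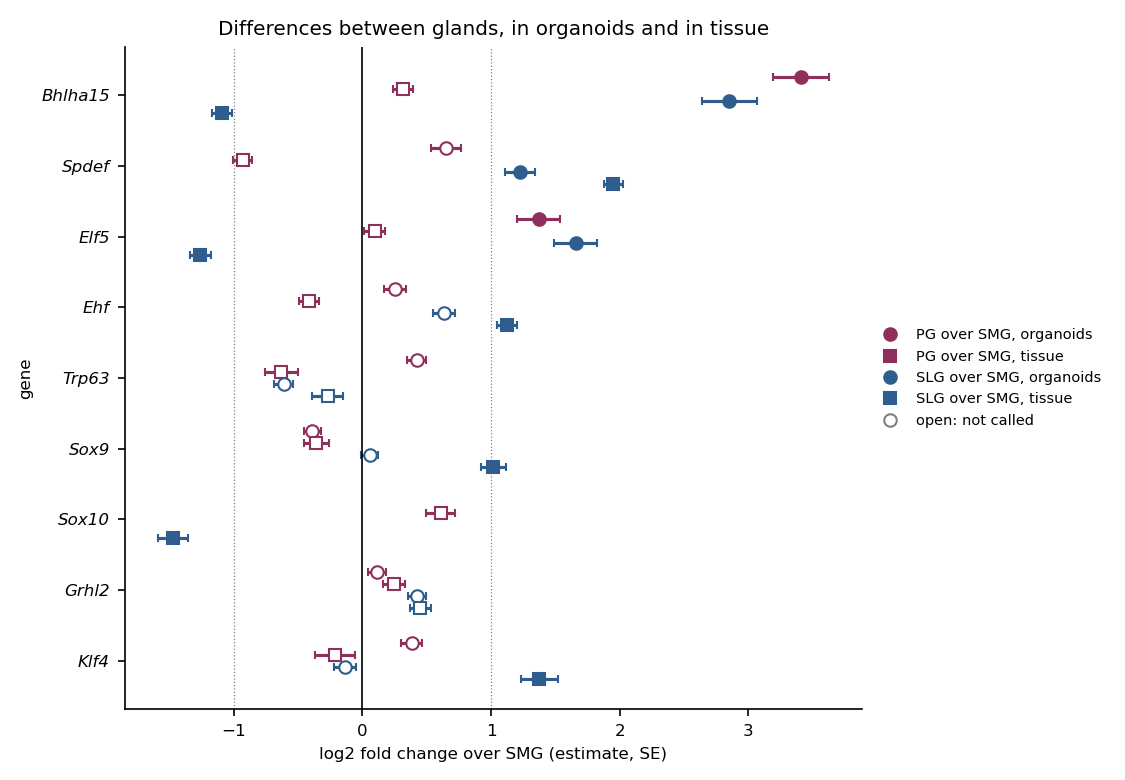
Log2 fold change of each factor in PG and in SLG over SMG, with bars of 1 SE, in DAM organoids (circles) and in tissue (squares). Sox10 is drawn for tissue only. Bhlha15 and Elf5 in SLG lie above SMG in organoids, at 2.85 and 1.66, and below SMG in tissue, at −1.09 and −1.26, but the tissue values turned to 0.35 and 0.17 under TPM.

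Between the glands in culture, 2 of 8 members were called in PG against SMG organoids, both higher, with 9.16% of 16260 genes called higher and 5.55% lower. In SLG against SMG 3 were called, all higher, with 8.91% of genes called higher and 6.28% lower. In PG against SLG 1 was called, which was higher, with 5.83% of genes called higher and 3.93% lower. The called members were Bhlha15 and Elf5 in both comparisons with SMG, Spdef in SLG and Trp63 between PG and SLG. These comparisons share groups and are not independent of each other. In tissue no member of 9 was called in PG against SMG by edgeR or DESeq2, nor at an unadjusted p with the same fold, with 6.71% of 16293 genes called higher and 6.78% lower by edgeR. There limma on log2(TPM + 1) called 1 member, Sox10, at 1.13. In SLG against SMG tissue 4 were higher and 3 lower, with 8.38% of genes called higher and 11.9% lower, and in PG against SLG tissue 3 were higher and 4 lower, with 15.7% and 12.6% of genes called. Of the 9, Grhl2 and Trp63 had no call between tissues on the TMM scale, though under whole library totals they were called in PG against SLG at −1.07 and −1.22, and Grhl2 in SLG against SMG at 1.43. Between media the fewest genes were called: in DAM against GEM 2 of 8 members were called, Bhlha15 and Elf5, both lower, with 1.15% of genes called lower and 1.81% higher. Hes1, a direct Notch target, fell in the same comparison by 1.10 (SE 0.07, adjusted p = 6.54e-06).

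**Figure D4:**
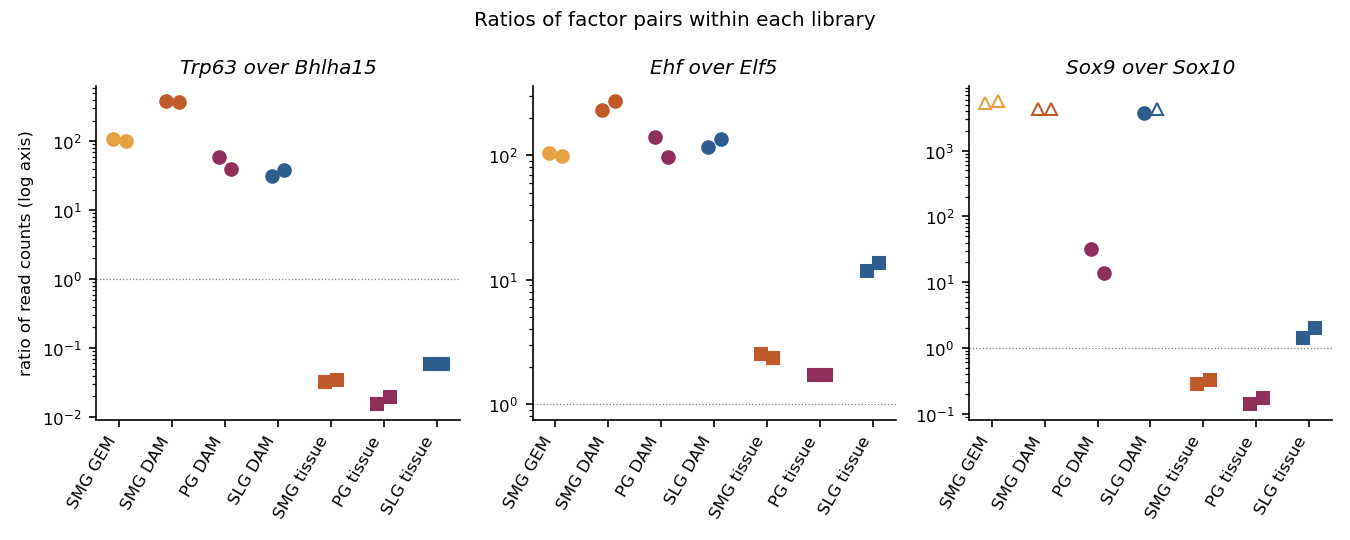
Ratios of counts within each library on a log axis, Trp63 to Bhlha15, Ehf to Elf5 and Sox9 to Sox10, with open triangles as lower bounds where Sox10 was at 0. Trp63 to Bhlha15 runs from 31.3 to 382 in organoids and from 0.0153 to 0.0594 in tissue, with no overlap.

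Ratios within a library do not depend on the scaling between libraries. The count of Trp63 was 376 and 382 times that of Bhlha15 in SMG organoids in DAM, and 103 and 109 times in GEM. It was 39.4 and 59.7 times in PG organoids and 31.3 and 38.0 times in SLG organoids. In tissue it was 0.0322 and 0.0348 in SMG, 0.0153 and 0.0197 in PG and 0.0588 and 0.0594 in SLG. SMG organoids in DAM thus had the highest ratio and PG tissue the lowest, and SMG organoids in GEM lay between SMG in DAM and the organoids of the other glands. In TPM, Bhlha15 held 34.6% to 42.5% of the summed level of the 9 factors in SMG and PG tissue, 12.6% and 13.0% in SLG tissue and at most 0.575% in organoids. Trp63 held 11.8% to 26.2% in organoids and at most 0.927% in tissue.

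**Figure D5:**
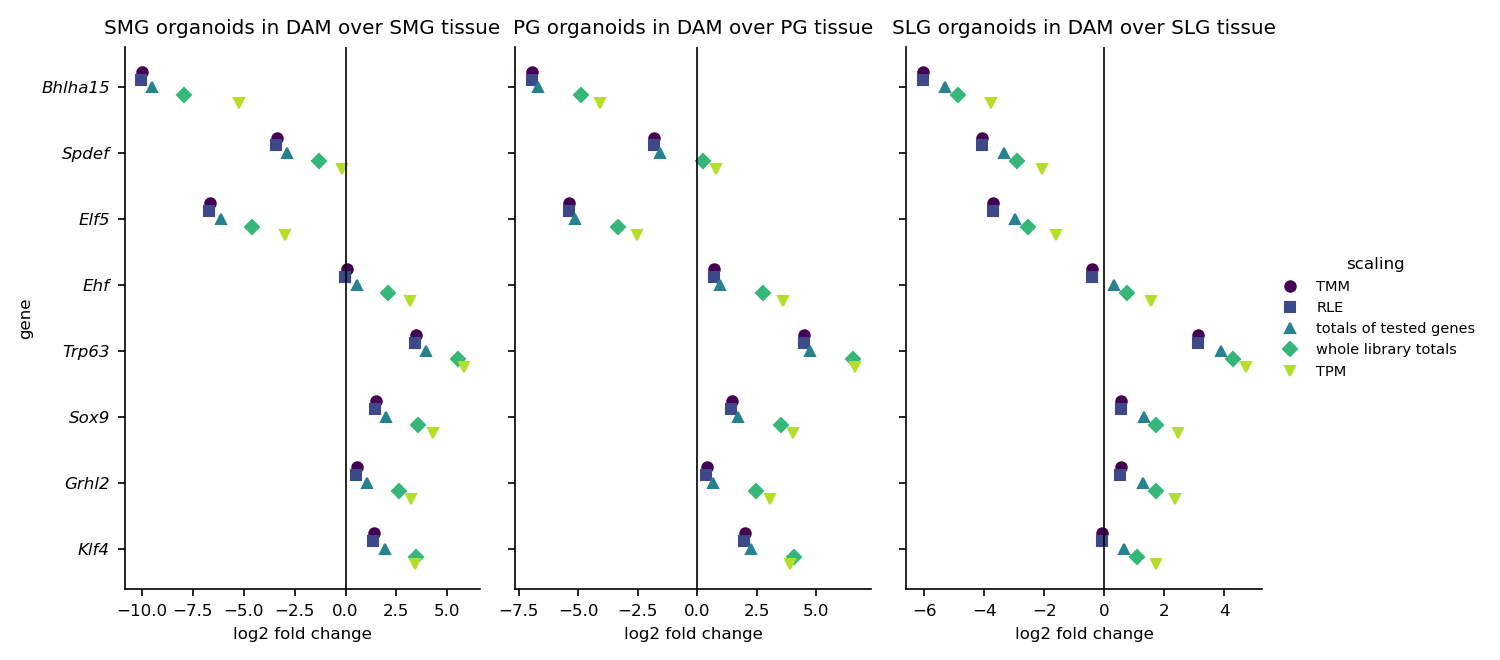
Log2 fold change of 8 factors in DAM organoids against tissue under TMM, RLE size factors, totals of tested genes, whole library totals and TPM, in panels for SMG, PG and SLG. Bhlha15 and Elf5 stay below 0 and Trp63 above 0 under all 5, whereas Spdef in PG, Ehf and Klf4 in SLG and Ehf in SMG (0.05 under TMM, −0.0034 under RLE) change side.

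Scaling changed several of these values. Whole library totals moved the median of all genes to 2.10 in SMG, 2.09 in PG and 1.14 in SLG organoids against tissue, and TPM moved it to 2.53, 2.40 and 1.71. The share of called genes that were higher went with it, from 50.6% to 92.7% in SMG, from 51.8% to 93.9% in PG and from 51.5% to 89.9% in SLG under whole totals. In SLG against SMG tissue it went from 41.3% to 94.9%, in PG against SLG tissue from 55.4% to 11.2%, and in PG against SMG tissue from 49.7% to 60.2%. Under TPM the share was 97.0%, 97.1% and 95.8% in SMG, PG and SLG organoids against tissue. Among organoids TPM moved it from 61.2% to 75.3% in DAM against GEM, from 62.3% to 77.9% in PG against SMG and from 58.7% to 73.3% in SLG against SMG. Under every setting run, the log2 value of Bhlha15 in organoids against tissue was at most −5.22 in SMG, −4.10 in PG and −3.78 in SLG, and that of Elf5 at most −2.997, −2.54 and −1.63. The value of Trp63 was at least 3.40, 4.35 and 3.09.

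Over the 14 libraries, the genes whose log2(CPM + 1) ran closest to each factor were looked up among 5635 genes, as a description over libraries that share groups and material. Closest to Bhlha15 were Lmo2 (Pearson r 0.994), Tspan15 and Cyp2d22. Spdef was followed by Mia3 (r 0.994), which loads large cargo in the endoplasmic reticulum, and by Lman1, a cargo receptor, and Tom1l1. Elf5 was nearest to Gjb1 (r 0.995), Ell2 and Srprb. Trp63 was nearest to Trip13 (r 0.997), Krt14 and Lif, and Sox10 to Lpl (r 0.994), Col6a2 and Fabp4, which are genes of fat and connective tissue. Ehf (Mgat3, Lasp1 and Serpinb11), Sox9 (Abcc1, Fam168a and Glg1), Grhl2 (Sema4d, Slc4a4 and Mmp15) and Klf4 (Cd47, Cpe and Anapc4) had highest r values of 0.968, 0.992, 0.969 and 0.986. Among the members themselves, Bhlha15 and Elf5 had an r of 0.989 and Bhlha15 and Trp63 an r of −0.959, while Ehf had an r of −0.239 with its neighbour Elf5.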

How the data were processed

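The deposited read counts per gene were made by the authors from reads aligned to GRCm38. HISAT2, StringTie and DESeq2 stand in the submitters' processing notes, without versions, and no source used here states whether counting used strand. The deposited TPM came from the same tables, 1 for organoids and 1 for tissue. The columns of PG organoids in DAM and SMG organoids in GEM numbered 3 carry no label title of their own and were assigned by group name for counts only. In all, 16 columns of per-sample values were not used, being the FPKM columns and the TPM of those libraries. Neither were the authors' own fold changes and p-values.

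Counts were tested with edgeR's quasi-likelihood test (edgeR 4.0.16 in R 4.3.3) with TMM factors and robust fitting, leaving out genes with a 0 in any library of the model. The models held 8 organoid libraries, 6 tissue libraries or all 14, except for Sox10 in PG organoids against tissue, fitted on the 4 PG libraries after its zeros had been seen. Adjusted p-values are Benjamini-Hochberg over all genes tested. Calls required an adjusted p below 0.05 together with more than 1 log2 unit of difference, up or down. The F test of gland by material used the adjusted p alone. Fold changes of genes with zeros used a floor of 3 counts per library. Levels are CPM on one TMM scale over 14 libraries.

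Alternatives were RLE size factors, DESeq2 1.42.0, totals of tested genes, whole library totals, filterByExpr, no filter, only the groups compared, unadjusted p, a block for the replicate number, omission of single libraries, and limma 3.58.1 on log2(TPM + 1) over 12 libraries with a mean TPM of at least 1, where the groups with 1 library are assumed to vary like the others. Differences of log2(TPM + 1) understate the changes of low genes. Named genes were the 9 members, up to 3 genes with the smallest adjusted p of each list and comparison, relatives of the members with at least 1 TPM in a group, and for each member the 3 genes with the highest Pearson r over 14 libraries, with a mean of at least 5 CPM and an SD of log2(CPM + 1) of at least 0.5. The members and lists were chosen with earlier results of these data known. On counts simulated for DAM against GEM, with 200 changed genes among 16022, the test recovered 96% of 3-fold changes. The changed genes were drawn from well-counted genes, with as many raised as lowered. The simulation therefore does not cover low genes or the choice of scaling.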

Additional observations from a re-analysis of the deposited data

Results flagged for a closer look

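The organoid against tissue difference differed between glands for 7 of the 8 members tested, by edgeR's F test of gland by material with Benjamini-Hochberg adjustment, as it did for 71.8% of all genes. The adjusted p was 2.46e-10 for Bhlha15, 1.80e-09 for Spdef, 1.02e-09 for Elf5, 1.23e-06 for Ehf, 4.65e-07 for Trp63, 4.52e-06 for Sox9 and 2.48e-08 for Klf4. In Bhlha15 and Elf5 the organoid minus tissue values of PG exceeded those of SMG by 3.07 and 1.25 on the log2 scale, and those of SLG exceeded SMG by 3.95 and 2.93. In Spdef, Trp63, Klf4 and Ehf, PG was above SMG by 1.56, 1.03, 0.58 and 0.65, whereas SLG minus SMG was −0.71, −0.33, −1.50 and −0.48. Sox9 gave −0.05 for PG minus SMG and −0.95 for SLG minus SMG.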

How the results depend on the processing

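Over all genes, the count of calls in DAM against GEM (482) was 907 at an unadjusted p, 308 with only the groups compared and 273 to 1065 with a library left out (273 without SMG DAM replicate 2, 1065 without SMG GEM replicate 3). With the replicate number as a block it was 823. Same-numbered libraries did not deviate together throughout (pair correlations −0.066 to 0.253, the highest between SMG GEM and PG DAM). These correlations cannot tell whether the numbers pair the samples. The block changed no member's call. Under TPM the counts were 1496 in PG against SMG organoids (2391), 1610 in SLG against SMG organoids (2470), 1014 in PG against SLG organoids (1587), 1174 in PG against SMG tissue (2197) and 6951 in SLG against SMG tissue (3309), and in organoids against tissue 11766 in SMG (6502), 11671 in PG (6701) and 10620 in SLG (5485). Whole library totals gave 8231 in SLG against SMG tissue, 7724 in PG against SLG tissue (4608), and 11867, 11724 and 8866 in SMG, PG and SLG organoids against tissue, and totals of tested genes gave 9184 and 8121 in those tissue comparisons. No filter gave 9812 in SMG and 8340 in SLG organoids against tissue, and filterByExpr 8383 in SLG. Members called changed to 1 from 2 in DAM against GEM and to 1 from 0 in PG against SMG tissue under TPM, to 2 from 1 in PG against SLG organoids under filterByExpr and no filter, and in SLG organoids against tissue to 7 from 4 under whole totals and to 9 under TPM. Leaving out a library of SLG against SMG tissue gave 6 to 7 members and 2503 to 3438 genes.

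Directions turned as follows. Grhl2 in DAM against GEM became 0.022 under either total, and Klf4 in SLG against SMG organoids 0.11 under TPM. In PG against SMG tissue under TPM Ehf became 0.15, Sox9 0.16 and Klf4 0.16. In SLG against SMG tissue Bhlha15 became 0.0058 under totals of tested genes and 0.35 under TPM, Elf5 0.17 under TPM, and Trp63 0.83, 0.71 and 0.77 under totals of tested genes, whole totals and TPM. In organoids against tissue Ehf in SMG became −0.0034 under RLE and DESeq2 and −0.0338 without SMG DAM replicate 2, and Spdef in PG 0.24 under whole totals and 0.79 under TPM. In SLG Ehf became 0.32, 0.74 and 1.55 and Klf4 0.67, 1.09 and 1.72 under totals of tested genes, whole totals and TPM, with Klf4 also at 0.022 without a filter. The cause was not tested. Sox9 in SLG against SMG tissue lost its call under filterByExpr (0.98) and with only the groups compared. Of 83 values under DESeq2, 82 kept direction and call, as did 91 of 92 under RLE and 429 of 432 with a library left out. Depth limits Bhlha15 in SMG organoids in DAM (61 and 67 counts) and Sox10 in SMG and SLG organoids (at most 4 counts).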

Other observations

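Several lineage factors outside the 9 also differed between groups, given here as values. Etv5, an ETS factor of branching epithelium, rose in organoids over tissue by 4.13 in SMG (SE 0.13), 4.18 in PG (SE 0.14) and 4.55 in SLG (SE 0.14) on the log2 scale. Id4, an inhibitor of helix-loop-helix factors, rose by 5.78, 3.23 and 4.56, and fell by 2.19 in PG organoids against SMG organoids. Tfap2c fell by 1.52 in PG and by 1.58 in SLG organoids against SMG organoids. Foxa1 had group means of 62.5 TPM in SLG tissue, 4.89 TPM in SMG tissue and 0.0726 TPM in PG tissue, and Pax9 of 82.6 TPM in PG tissue, 3.06 TPM in SMG tissue and 13.9 TPM in SLG tissue. Ptf1a and Rbpjl, which act with helix-loop-helix factors in pancreatic acini, were at 0 in all groups.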
